A study of Mus musculus with 2 samples.

Results

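The genes described here are 10 genes of the endocrine secretory granule: the granins Chga, Chgb, Scg2 and Scg3, the prohormone-processing genes Scg5, Pcsk1, Pcsk1n and Cpe, and the granule phosphatase genes Ptprn and Ptprn2. They were chosen by name, and all 12 probe sets whose only platform symbol was one of these names were taken, out of 18193 genes on the array. Expression was measured in whole pancreas of male C57BL/6J mice at 10 weeks of age, with 1 pooled RNA sample on 1 Affymetrix mouse array per group. The dams of the threonine-deficient group had received a diet lacking enough threonine, an essential amino acid, from embryonic day 12.5 to 14.5, and the dams of the control group a control diet over the same days. The offspring of both groups were weaned at 3 weeks, given control diet and not treated themselves. How many animals each pool held is not stated in the labels. No value has a replicate, so no difference below was tested, and each one is between these 2 pools.

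Hormones of the islet, such as insulin and glucagon, are made as larger precursors and packed into dense-core granules. In the granule the precursors are cut at pairs of basic residues by prohormone convertases, and carboxypeptidase E then trims the basic residues left at the cut ends. The granins are acidic, calcium-binding proteins that aggregate in the trans-Golgi network and help to form the granule core, and the phosphatase family members span its membrane. In the pancreas these genes mark endocrine cells, which are a small part of the tissue beside the acinar cells that make digestive enzymes. In such bulk samples, fewer cells of a type and less RNA per cell cannot be told apart.

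Values are MAS5 signals in arbitrary units, scaled by the authors so that both arrays have the same trimmed mean. Signals under a floor of 264.9, the higher of the arrays' 60th percentiles, were raised to it before log2 was taken, and a fold from such a signal is a bound, written as "at least". The floor was passed by 10758 genes on 1 array or more, which are the genes tested below, and by 8834 on both. Brightness depends on the probes, so signals of different probe sets are not set against each other. The acinar enzyme genes were bright on both arrays, with 9 of 9 measured markers above the floor, as were insulin 2 and glucagon, so the label of the tissue fitted its markers.

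The signal was lower in the threonine-deficient pool for 9 of the 10 genes, where 49.9% of all genes tested were lower. None of the 10 was 1.5-fold lower or higher, a size reached downwards by 5.36% and upwards by 7.20% of all genes tested. None was 2-fold apart, a size reached by 0.874% and 1.28%. For Scg3, Pcsk1, Pcsk1n and Ptprn the floor fixed in advance that they could not be called lower. Their control signals of 345 to 391 lie less than 1.5-fold above it. Without a floor, Pcsk1 was 1.60-fold and Pcsk1n 3.55-fold lower, from signals below it in the threonine-deficient pool. The median log2 ratio of threonine-deficient over control was −0.41 over the 10 genes and 0.00 over all genes tested. All 10 passed the floor, but Scg3, Pcsk1 and Pcsk1n passed it only through the control pool, which fixed their direction. Of the 7 members above the floor on both arrays, 6 were lower, with a median of −0.23, while 52.0% of all such genes were lower, with a median of −0.02.

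**Figure D1:**
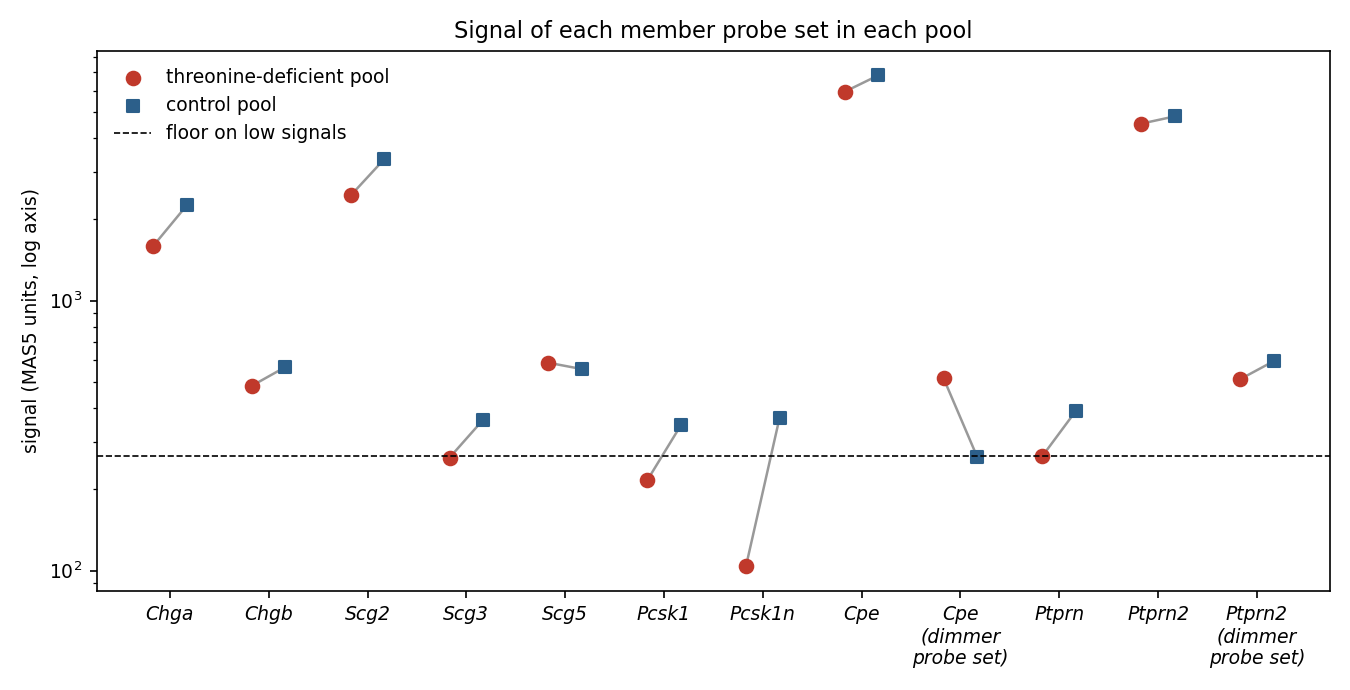
Signal of each of the 12 member probe sets (vertical log axis, MAS5 units) in the threonine-deficient pool (circles, left) and the control pool (squares, right), with the floor of 264.9 as a dashed line; each point is 1 array. The circle is below the square in 10 probe sets and above it for Scg5 and for the dimmer probe set of Cpe.

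Among the granins, chromogranin A (Chga), an acidic core protein of the granule and precursor of peptides such as vasostatin and pancreastatin, had a signal of 1591 in the threonine-deficient pool and 2251 in the control pool. This is 1.42-fold lower, a log2 ratio of −0.50. Secretogranin II (Scg2), the precursor of secretoneurin, had a signal of 2451 in the threonine-deficient pool and 3344 in the control pool, 1.36-fold lower, a log2 ratio of −0.45. Both lay just under the 5th percentile of the 500 other genes nearest to them in mean signal, whose 5th and 95th percentiles of log2 ratio were −0.47 and 0.38 around Chga and −0.42 and 0.29 around Scg2. They were the 2 members outside this span, which is given below as the range of each gene's neighbours in signal. By construction 5% of the neighbours lie below the span and as many above it. Lying just outside it thus does not set a gene apart.

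Chromogranin B (Chgb), the other large granule core protein, had a signal of 484 in the threonine-deficient pool and 568 in the control pool, 1.17-fold lower. Its log2 ratio of −0.23 was well inside the range of genes of like signal, −0.80 to 0.83. Secretogranin III (Scg3), which binds chromogranin A to the cholesterol-rich granule membrane, read 262 in the threonine-deficient pool, just under the floor, and 362 in the control pool. It was at least 1.37-fold lower, and its neighbours in signal ranged from −0.65 to 0.76 on the log2 scale. All 4 granins thus had the lower signal in the threonine-deficient pool, by log2 ratios of −0.23 to −0.50, each from 1 probe set. The direction of Scg3 was fixed, since it passed the floor only through the control pool. The other 3, above the floor on both arrays, were all lower.

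The convertase system was more mixed. Prohormone convertase 1/3 (Pcsk1), the protease that starts the cutting of proinsulin, read 216 in the threonine-deficient pool and 345 in the control pool, at least 1.30-fold lower after the floor and 1.60-fold lower without it. ProSAAS (Pcsk1n), whose C-terminal peptide inhibits that convertase, read 104 in the threonine-deficient pool and 368 in the control pool, at least 1.39-fold lower after the floor. Without a floor the same signals are 3.55-fold apart, a log2 ratio of −1.83, which was the most extreme value of any member. At that signal the range of its neighbours without a floor was −2.13 to 2.20, so the value lay inside it, and it rests on a signal below the floor.

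Secretogranin V (Scg5, also called 7B2), the chaperone that prohormone convertase 2 needs to mature, was the exception in direction, with 589 in the threonine-deficient pool and 558 in the control pool. Its log2 ratio of 0.08 lay close to the median of its neighbours, 0.04. Pcsk2, which encodes that protease, was not analysed here. Carboxypeptidase E (Cpe) read 5942 in the threonine-deficient pool and 6832 in the control pool in its brighter probe set, 1.15-fold lower, with a log2 ratio of −0.20 and a range of −0.41 to 0.22 for its neighbours. Its dimmer probe set went the opposite way, with 515 in the threonine-deficient pool and 263 in the control pool, at least 1.94-fold higher. That probe set ends in _x_at, a suffix for probes that may also read other transcripts. By probe set, 10 of 12 were lower, against 49.4% of all probe sets tested. Those of Scg3, Pcsk1 and Pcsk1n passed the floor only through the control pool, which fixed them as lower. The dimmer one of Cpe passed only through the threonine-deficient pool, which fixed it as higher. None of the 12 was 1.5-fold lower, against 5.56%. The floor fixed this in advance for Scg3, Pcsk1, Pcsk1n, Ptprn and the dimmer probe set of Cpe. Of the 12, 1 was 1.5-fold higher, the dimmer probe set of Cpe, against 7.82%. The direction of Cpe was thus not settled by its probe sets.

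Of the granule phosphatases, which have little or no tyrosine phosphatase activity and are known as the autoantigens IA-2 and IA-2 beta of type 1 diabetes, Ptprn read 266 in the threonine-deficient pool and 391 in the control pool. This is 1.47-fold lower, with a log2 ratio of −0.56, the lowest of the 10 after the floor. The signal of the threonine-deficient pool stood almost at the floor, and genes of like signal ranged from −0.68 to 0.85. Ptprn2 read 4524 in the threonine-deficient pool and 4813 in the control pool, a log2 ratio of −0.09. Its dimmer probe set read 511 in the threonine-deficient pool and 597 in the control pool, a log2 ratio of −0.22 in the same direction. The readings were 1.06-fold and 1.17-fold apart, so both were small.

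**Figure D2:**
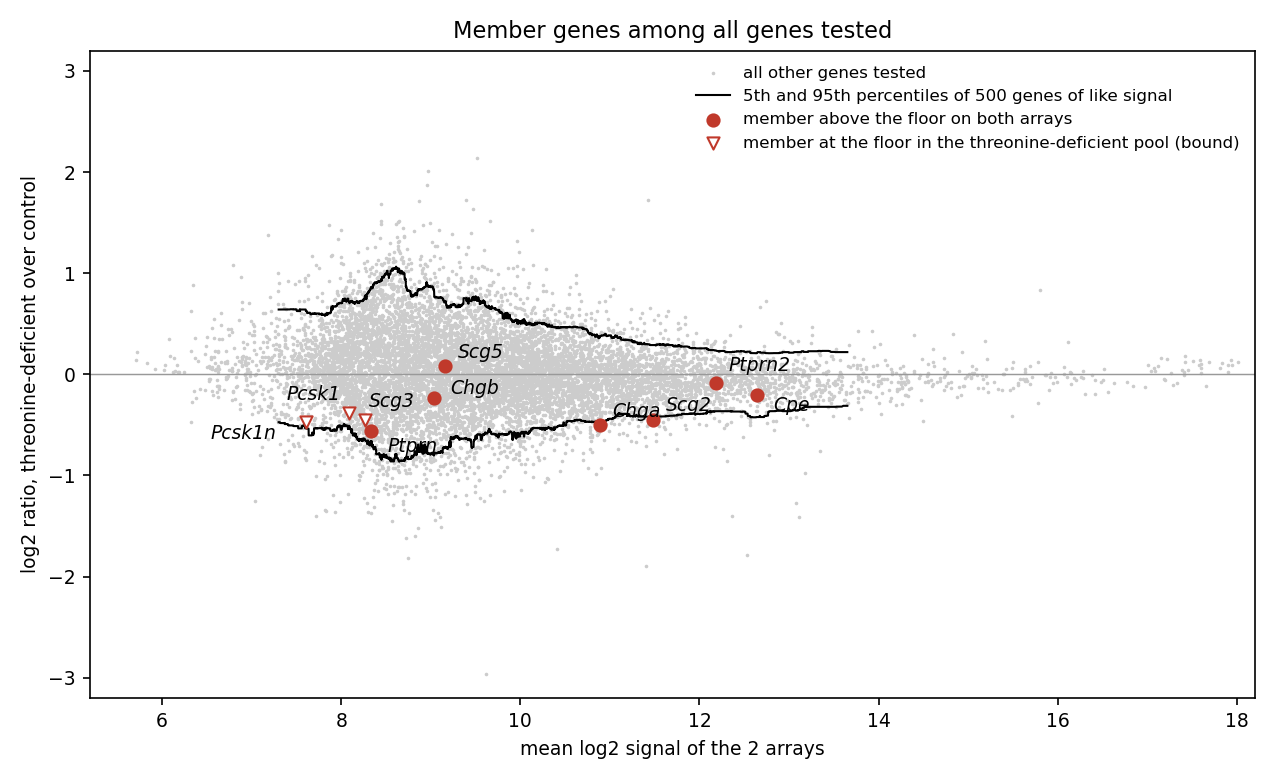
Log2 ratio of threonine-deficient over control (vertical) against the mean log2 signal of both arrays (horizontal) for all 10758 genes tested (grey), with the members in red and open triangles for bounds; black lines are the 5th and 95th percentiles of log2 ratio over 500 genes of like signal. Chga and Scg2 lie just below the lower line and the other 8 members between the lines.

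Repeat readings of other genes show how far a ratio of this size can be read. Over 3246 genes with another probe set above the floor on both arrays, the SD of the log2 ratio from probe set to probe set of a gene was 0.34, which covers probe and hybridisation noise and not the spread between animals. It depended on the signal. It was 0.40 where the dimmer probe set read up to 500, the range of Scg3, Pcsk1 and Ptprn, and 0.38 from 500 to 1000, the range of Chgb and Scg5. It was 0.26 from 1000 to 2000, where Chga lies by its mean signal, and 0.21 both from 2000 to 4000, where Scg2 lies, and from 4000 to 8000, where Cpe and Ptprn2 lie. The log2 ratios of Chga and Scg2 were larger in size than this SD at their level, while those of Chgb, Scg5, Cpe and Ptprn2 were smaller. That of Ptprn was larger too, but it lay inside the range of its neighbours, −0.68 to 0.85. Only probe sets above the floor on both arrays entered the SD, so it may be too small for signals near the floor. Being larger than 1 SD is not a test. The share of probe set pairs with the same sign was 49.6% up to 500, 50.3% from 500 to 1000, 49.4% from 1000 to 2000, 59.5% from 2000 to 4000 and 65.6% from 4000 to 8000.

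The promoters of the members were searched for a sequence feature that their choice did not use. RefSeq promoter windows, from 250 bases before the start of transcription to 50 after it, were at hand for 9 of the 10 genes, all but Cpe, in 10 windows. The letters sought, on both strands, were TGACGTCA, the palindromic cAMP response element bound by CREB and related factors, and its shorter form TGACG, which every TGACGTCA contains on both strands. The full element was in the windows of 3 of the 9 genes, Chgb, Scg2 and Pcsk1, whereas 2.03% of 27025 genes of the table held it, and 1.79% of 32851 windows. All 9 are genes tested. Among genes tested that had a window, 302 held the full element and 8418 did not, a larger share than over all genes of the table. The shorter form was in the windows of 7 of the 9, also in Chga, Scg3, Scg5 and Ptprn, against 23.0% of all genes of the table and 20.8% of all windows. Positions −120 to −21 of 5 of these genes are printed here to show how near the start the elements lie, 5′ to 3′ on the gene's own strand with both forms in capitals, in build GRCm38.p6 and counted from the start of transcription as position 1. The windows are chr2:132781522-132781621 on the plus strand for Chgb, chr1:79440047-79440146 on the minus strand for Scg2, chr13:75089737-75089836 on the plus strand for Pcsk1, chr12:102554821-102554920 on the plus strand for Chga and chr1:75264229-75264328 on the minus strand for Ptprn.
Chgb: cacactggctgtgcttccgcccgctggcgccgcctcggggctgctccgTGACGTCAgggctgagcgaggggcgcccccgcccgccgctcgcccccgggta
Scg2: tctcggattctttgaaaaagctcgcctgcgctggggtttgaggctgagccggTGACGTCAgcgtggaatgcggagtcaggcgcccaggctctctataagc
Pcsk1: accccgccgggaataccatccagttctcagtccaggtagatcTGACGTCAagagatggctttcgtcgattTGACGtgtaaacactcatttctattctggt
Chga: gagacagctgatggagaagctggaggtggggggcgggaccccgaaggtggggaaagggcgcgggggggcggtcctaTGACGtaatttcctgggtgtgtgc
Ptprn: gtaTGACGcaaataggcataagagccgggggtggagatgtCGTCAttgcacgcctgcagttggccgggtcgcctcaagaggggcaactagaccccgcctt

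The full element began at position −72 in Chgb, −68 in Scg2 and −78 in Pcsk1, so it lay at nearly the same distance from the start in all 3. Pcsk1 held a further short form at −50. The short form in Chga began at −44 and that in Scg3 at −30. Ptprn held short forms at −117 and, on the other strand, at −80 in the window printed, and none in its other window. The one before the start in Scg5 lay at −175. Neither form was found in the windows of Ptprn2 and Pcsk1n. A match of letters is not evidence that a factor binds there in these cells.

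Of the genes with the full element, Chgb had a log2 ratio of −0.23, Scg2 one of −0.45 and Pcsk1 one of −0.38 as a bound, and the other members with a window spanned −0.56 to 0.08. Over the whole array, the 302 tested genes with the full element in a window had a median log2 ratio of −0.03, with 54.3% lower in the threonine-deficient pool, and the 8418 without it had a median of 0.00, with 49.9% lower. Among the other lists described here, Sst held the full element too, as did Slc18a2, Pax6 and Th, and these last 3 did not pass the floor on either array.

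The list of other processing enzymes did not lean to either side as a whole. Not all of its genes process prohormones, and some are not specific to endocrine granules, so its median does not describe the endocrine cells alone. Of its 16 genes, 8 were above the floor, with 4 lower and 4 higher in the threonine-deficient pool. Their median log2 ratio was 0.00, the same as over all genes tested. Pam, which makes the C-terminal amide of many peptide hormones, read 777 in the threonine-deficient pool and 1164 in the control pool, a log2 ratio of −0.58. The membrane carboxypeptidase gene Cpm, which is not specific to endocrine granules, read 443 in the threonine-deficient pool and 778 in the control pool, 1.76-fold lower, and its other probe set lay below the floor. Among the convertases of the constitutive pathway, Pcsk7 read 1305 in the threonine-deficient pool and 1000.5 in the control pool and Pcsk6 read 585 in the threonine-deficient pool and 451 in the control pool, both at log2 ratios of 0.38. Furin had −0.05, and Pcsk4 and Pcsk5 were under the floor on both arrays.

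Other granule cargo and membrane proteins were as evenly split, with 9 lower and 7 higher of 16 measured among 21 genes and a median of −0.02. Of these, 4 passed the floor on 1 array only, which fixed their direction. Of the 12 above the floor on both arrays, 7 were lower and 5 higher, with a median of −0.07. The zinc transporter of the insulin granule, Slc30a8, read 420 in the threonine-deficient pool and 625 in the control pool, 1.49-fold lower. Collectrin (Cltrn), a membrane protein of beta cells and kidney, read 450 in the threonine-deficient pool and 783 in the control pool, 1.74-fold lower. Its only probe set has a suffix for probes that may be shared by more than 1 transcript. Slc18a1, a vesicular monoamine transporter gene, was at least 1.44-fold higher, with 382 in the threonine-deficient pool and 211 in the control pool. It passed the floor only through the threonine-deficient pool, which fixed its direction. Its other probe sets were under the floor on both arrays, so that the median over its probe sets was 0. Rph3al, a Rab effector of exocytosis, had a log2 ratio of 0.51 in its brighter probe set and of −0.64, a bound from the floor, in the other. Vgf, a granin-like precursor, was under the floor throughout, with 37.6 in the threonine-deficient pool and 17.3 in the control pool.

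The genes that dock and fuse granules also went both ways, with 6 lower and 6 higher of 12 measured among 21 genes and a median of 0.05. The vesicle SNARE gene Vamp2 read 1206 in the threonine-deficient pool and 669 in the control pool, 1.80-fold higher, and its other probe set was under the floor. Complexin 1 (Cplx1), which clamps the fusion machinery, read 535 in the threonine-deficient pool and 955 in the control pool, 1.79-fold lower, with log2 ratios of −1.72 and 0.48, the last from the floor, in its other probe sets. Nsf, the ATPase that takes SNARE complexes apart, had a log2 ratio of 0.54 in one probe set and −1.04 in another. Stx3, a syntaxin also used by acinar cells, had 0.52, and 0.35 from the floor in another probe set. Most of these genes serve secretion in other cells as well.

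**Figure D3:**
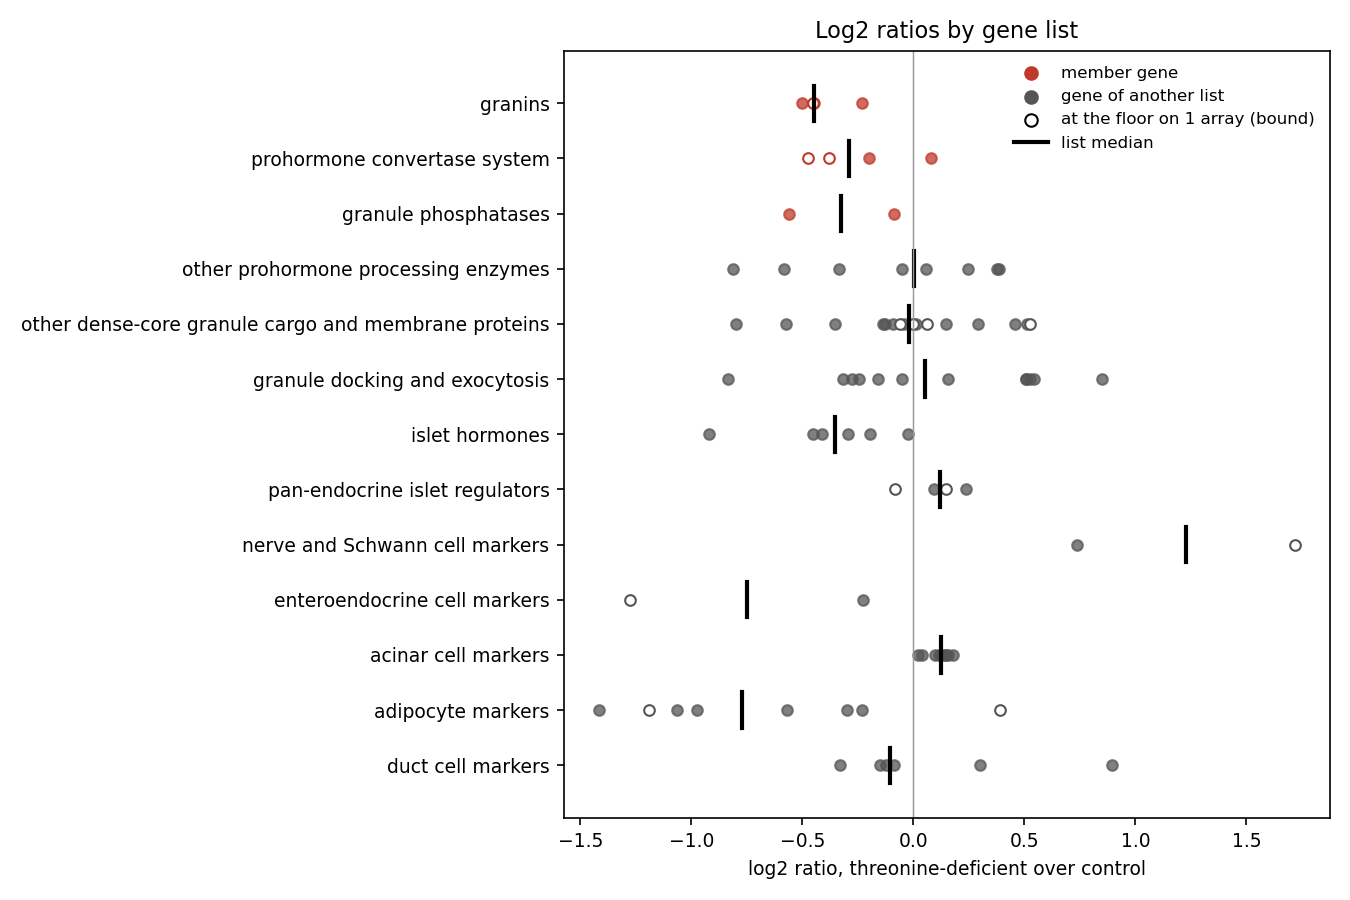
Log2 ratio of threonine-deficient over control (horizontal) for each gene above the floor on at least 1 array, by list (rows), with members in red, genes at the floor on 1 array as open circles and list medians as black bars. The granin median is −0.45 and the islet hormone median −0.35, while the medians of the 3 other granule and processing lists lie between −0.02 and 0.05.

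The cargo that these genes process leaned the same way as the members. All 6 islet hormone genes that passed the floor, of 8 listed, had the lower signal in the threonine-deficient pool, with a median of −0.35 and a summed signal of 142685 in the threonine-deficient pool and 173512 in the control pool. Somatostatin (Sst) read 1252 in the threonine-deficient pool and 2373 in the control pool, a log2 ratio of −0.92. Log2 ratios were −0.45 for Pyy, −0.41 for Iapp, −0.29 for Gcg, −0.20 for Ins2 and −0.02 for Ppy. Ins2 and Gcg were each read by 1 probe set, with a suffix for probes that may be shared by more than 1 transcript. Without probe sets of such a suffix, the median was −0.48 over 4 hormone genes. The other probe sets of Iapp had −0.51, −0.39 and 0.00, all above the floor on both arrays. Ghrl was below the floor on both arrays and Ins1 was not analysed here. The summed signal of the 10 members was 16427 in the threonine-deficient pool and 19832 in the control pool. It rests mostly on the bright probe sets of Cpe and Ptprn2, and that of the hormones on Ins2 and Iapp. Neither sum is thus a measure of its list as a whole. Transcription factors of islet cells could hardly be read, with 4 of 12 above the floor. Of these, Pdx1 had 0.24 and Hhex 0.09, both above the floor on both arrays. Isl1 was at least 1.11-fold higher and Neurod1 at least 1.06-fold lower. Isl1 passed the floor only through the threonine-deficient pool and Neurod1 only through the control pool, which fixed their directions. The other probe sets of Pdx1, Isl1 and Neurod1 were under the floor on both arrays.

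Markers of other cells that carry such granules or surround the islets differed as well, and their part in the values of the members was not tested. Of 14 nerve and Schwann cell genes, 1 was above the floor on both arrays, Sox10, which read 1045 in the threonine-deficient pool and 627 in the control pool. Dbh was at least 3.29-fold higher in the threonine-deficient pool, but it passed the floor only through that pool, which fixed its direction. The other probe sets of Sox10 and Dbh were under the floor on both arrays, which put the median over probe sets at 0 for both genes. The summed signal of the probe sets that passed was 1917 in the threonine-deficient pool and 879 in the control pool. The defining neuronal genes Uchl1, Stmn2, Tubb3, Prph, Nefl, Nefm, Elavl4 and Gap43 were below the floor on both arrays. Of 7 gut endocrine cell genes, Cck, Gip, Nts, Tph1 and Gast were below the floor on both arrays. Secretin (Sct) was at least 2.42-fold lower, but it passed the floor only through the control pool, which fixed its direction. Galanin (Gal) had a log2 ratio of −0.23. The summed signal of Sct and Gal was 27857 in the threonine-deficient pool and 33022 in the control pool. Gal alone read 27704 in the threonine-deficient pool and 32381 in the control pool, so the sum is not a measure of gut endocrine cells.

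The acinar genes were slightly higher in the threonine-deficient pool, in 9 of 9 measured of 13 listed, with a median of 0.12. Their summed signal was 1847289 in the threonine-deficient pool and 1710917 in the control pool, and their largest log2 ratios were 0.18 for Cela2a, 0.16 for Ctrb1, 0.14 for Cel and 0.14 for Cela1. Of 10 adipocyte genes, 8 were above the floor and 7 of them lower, with a median of −0.77 and a summed signal of 23932 in the threonine-deficient pool and 43306 in the control pool. Their largest log2 ratios were −1.42 for Car3, −1.06 for Adipoq and −0.98 for Fabp4, and Cidec was at least 2.28-fold lower. Cidec passed the floor only through the control pool, which fixed it as lower. The 1 adipocyte gene that was higher passed only through the threonine-deficient pool, so its direction was fixed too. The 6 adipocyte genes that passed in both pools were all lower, again with a median of −0.77. Another probe set of Car3 had −1.69 and its remaining 2 were under the floor on both arrays, so that the median over its probe sets was −0.71. Other probe sets of Fabp4 had −0.47 and, from the floor, −0.15, with a median over its probe sets of −0.31 and −0.15 without those of a sharing suffix. Of 10 duct genes, 6 were above the floor, 4 lower and 2 higher, with a median of −0.10, from 0.89 for Sox9, 0.30 for Krt19 and −0.15 for Krt8 to −0.33 for Krt18. The median over the probe sets of Sox9 was 0.33. Their summed signal was 29462 in the threonine-deficient pool and 32959 in the control pool.

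The log2 ratios of the members were computed under 8 other settings of centring, floor and probe set choice. Chga stayed between −0.50 and −0.44 and Scg2 between −0.45 and −0.39 in all 8, and Chgb and Ptprn2 were below 0 in 8 of 8. Scg5 was above 0 in 8 of 8. Scg3, Pcsk1, Pcsk1n and Ptprn were below 0 in the 7 settings that kept them, and all 4 dropped out with a floor at the 75th percentile. Scg3, Pcsk1 and Pcsk1n passed the floor as reported only through the control pool, which fixed their direction. Cpe was below 0 in 7 of 8 and at 0.38 as the median of both of its probe sets. For the 8 members with 1 probe set, the settings of probe set choice could change nothing by design. A floor that was moved or left out did not change Chga and Scg2, which lie well above it. The numbers of settings are thus not numbers of separate checks.

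**Figure D4:**
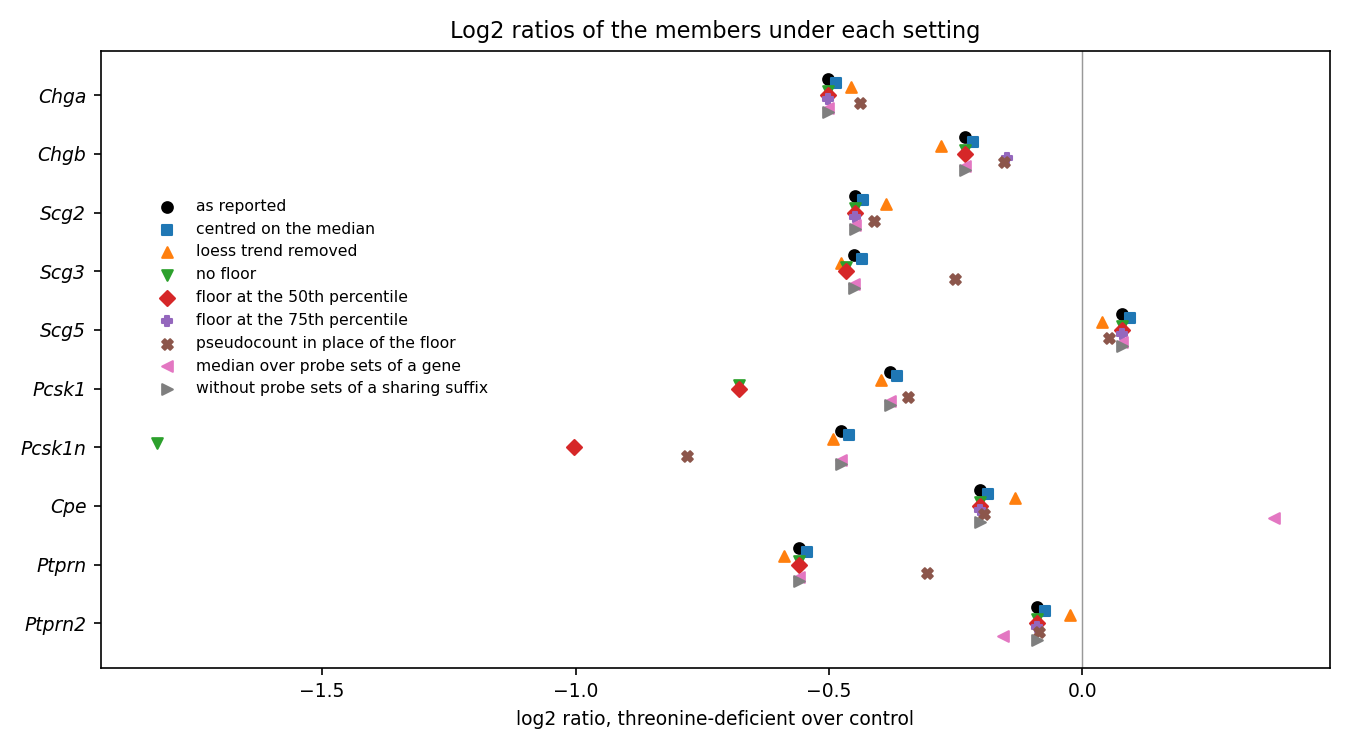
Log2 ratio of threonine-deficient over control (horizontal) of each member (rows) as reported and under the 8 other settings (symbols). The symbols of Chga and Scg2 lie close together, Pcsk1n spreads from −1.83 with no floor to −0.46, and Cpe is above 0 in 1 setting.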

How the data were processed

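RNA of whole pancreas was pooled within each group and hybridised to 1 array per group. The deposited values are a linear signal intensity per probe set, which the authors made with MAS5, per the submitters' processing notes. The version of MAS5 is not given in the sources used. The mean signal, with the lowest and highest 2% left out, was 500.0 on each array. Each array is scaled as a whole, so ratios are relative to the rest of the array.

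Of 45101 probe sets, 34945 carried exactly 1 gene symbol and 64 were control probe sets, which were left out. Symbols were checked by gene identifier against a RefSeq table of assembly GRCm38.p6, which matched 34741 of them. Of several probe sets of a gene, the brightest by mean log2 signal was read. Signals were raised to the higher of the arrays' 60th percentiles, 264.9, and log2 ratios of the threonine-deficient over the control pool were taken. Python 3.11.15, pandas 2.3.3 and statsmodels 0.14.6 were used, and the scripts were tested on simulated data beforehand. With 1 array per group there was no test, and the number of arrays limits the precision.

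The members and lists were chosen with earlier results of these data known. Named are all members, the islet hormones, Pcsk2, Pam and Vgf, and in each other list the up to 4 genes with the largest absolute log2 ratios. The 8 alternatives changed the centring, the trend, the floor or the choice of probe sets. A further alternative, chosen after seeing the data, kept only genes above the floor on both arrays.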

Additional observations from a re-analysis of the deposited data

How the results depend on the processing

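With 1 array per group no replicate could be left out. No paired analysis was possible because each group has 1 sample. Dim signals are the main limit: 4 members lay at or near the floor, so their ratios depend on it. The median over the members was −0.17 over 6 genes with a floor at the 75th percentile, −0.28 with a pseudocount added instead, and −0.23 when the 3 members under the floor on an array were dropped, leaving 7; it stayed below 0 throughout. With the higher floor 5 of those 6 genes and 6 of 8 probe sets were lower. At least 1.5-fold lower were 1 member (Ptprn) after the loess trend was removed, 2 (Pcsk1 and Pcsk1n) with no floor or one at the 50th percentile, and 1 (Pcsk1n) with a pseudocount, and the same numbers of member probe sets. Pcsk1n was the 1 member at least 2-fold lower, with no floor and with one at the 50th percentile. The probe set of Cpe that was 1.5-fold higher left 0 such probe sets with a floor at the 75th percentile, with a pseudocount, or when those with a sharing suffix were left out. The median of granule docking and exocytosis genes was 0.51 over 9 genes with the floor at the 75th percentile. That of adipocyte markers was −0.57 with that floor, −0.44 when all probe sets of a gene were summarised, and −0.57 when those with a sharing suffix were left out. Over all genes tested, 577 were at least 1.5-fold lower and 775 higher, but 949 and 1390 with no floor, 905 and 1324 with a floor at the 50th percentile, 224 and 221 at the 75th, and 289 and 391 as the median over probe sets; 479 were higher when a signal over the floor was required on each array. At least 2-fold lower were 94 and higher 138, but 388 and 659 with no floor, 206 and 341 at the 50th percentile, 23 and 23 at the 75th, 52 and 86 with a pseudocount, 39 and 65 as the median over probe sets, and 57 and 66 above the floor on both. The cause of these shifts was not tested beyond the settings themselves.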
